A study of Mus musculus with 48 samples.

Results

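The thioredoxins and thioredoxin reductases of the mouse were described here across the liver and the colon of the same feeding experiment. The members were chosen by name: the thioredoxin genes *Txn1* and *Txn2* and the thioredoxin reductase genes *Txnrd1*, *Txnrd2* and *Txnrd3*, 5 of the 18434 genes named on the array, represented by 6 of its 41174 probes (*Txnrd2* had a pair of probes and each other gene had 1). All C57/BL6 dams and offspring ate a high-fat diet that was either supplemented with selenium (Se) and folate (H) or marginally deficient in both (L). Per the study's methods, diet H held both nutrients above the recommended requirement. In the 4 groups HH, HL, LH and LL the dam's diet in gestation and lactation is named first and the diet that her pups then ate from weaning to 12 weeks of age is named second, which makes a crossed design with 6 offspring in each group, 5 in the HH liver group because 1 mouse had been hybridised on 2 arrays, which were averaged. The animals were male according to the study's methods, RNA came from whole liver and whole colon, so a sample holds every cell type of the organ, and Se and folate were always changed together, so their effects cannot be told apart.

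Thioredoxins are small proteins that reduce disulphides in other proteins, and thioredoxin reductases return oxidised thioredoxin to its reduced form with electrons from NADPH. *Txn1* and *Txnrd1* encode the cytosolic pair, *Txn2* and *Txnrd2* the mitochondrial pair, and *Txnrd3* a reductase with an added glutaredoxin domain that is best known from the testis. The reductases are selenoproteins, with a selenocysteine next to the carboxyl end that is needed for catalysis, whereas the thioredoxins contain no selenium. Most of the peroxiredoxins, the methionine sulphoxide reductases and ribonucleotide reductase draw their electrons from thioredoxin, *Txnip* encodes a protein that binds and inhibits it, and the transcription factor Nrf2 (*Nfe2l2*) acts on *Txn1* and *Txnrd1* through antioxidant response elements.

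The promoters of the genes that differed most between the organs are shown with the one that holds an antioxidant response element core. Each window runs from 250 bases before to 50 bases after an annotated transcription start (RefSeq, GRCm38.p6), 5′ to 3′ on the strand of the gene. All 5 genes matched, with 7 windows because *Txnrd1* has 3 annotated starts. Capitals in the first 3 sequences mark GC boxes, searched as GGGCGG on both strands, and capitals in the *Txnrd1* sequence mark the antioxidant response element core, searched as TGACNNNGC on both strands and lying here on the opposite strand.
*Txn1*, chr4:57956362-57956661, minus strand: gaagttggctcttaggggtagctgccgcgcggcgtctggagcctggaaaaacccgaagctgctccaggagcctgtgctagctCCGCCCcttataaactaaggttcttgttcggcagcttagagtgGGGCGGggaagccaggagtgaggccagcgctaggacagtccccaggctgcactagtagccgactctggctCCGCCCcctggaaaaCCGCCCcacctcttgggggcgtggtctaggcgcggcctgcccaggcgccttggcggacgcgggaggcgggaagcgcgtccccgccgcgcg
*Txn2*, chr15:77928945-77929244, minus strand: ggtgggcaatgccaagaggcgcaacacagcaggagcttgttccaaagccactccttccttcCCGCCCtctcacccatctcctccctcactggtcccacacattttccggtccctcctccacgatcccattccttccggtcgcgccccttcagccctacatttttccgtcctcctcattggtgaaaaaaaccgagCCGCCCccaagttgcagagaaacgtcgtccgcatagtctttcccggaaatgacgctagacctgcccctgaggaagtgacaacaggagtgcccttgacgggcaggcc
*Txnrd2*, chr16:18426167-18426466, plus strand: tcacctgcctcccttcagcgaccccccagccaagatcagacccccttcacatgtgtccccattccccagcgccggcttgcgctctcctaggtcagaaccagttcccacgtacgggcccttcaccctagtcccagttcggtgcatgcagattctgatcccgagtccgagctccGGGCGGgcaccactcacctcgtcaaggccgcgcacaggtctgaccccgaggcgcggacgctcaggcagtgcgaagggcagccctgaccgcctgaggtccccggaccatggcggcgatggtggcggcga
*Txnrd1*, second start, chr10:82858956-82859255, plus strand: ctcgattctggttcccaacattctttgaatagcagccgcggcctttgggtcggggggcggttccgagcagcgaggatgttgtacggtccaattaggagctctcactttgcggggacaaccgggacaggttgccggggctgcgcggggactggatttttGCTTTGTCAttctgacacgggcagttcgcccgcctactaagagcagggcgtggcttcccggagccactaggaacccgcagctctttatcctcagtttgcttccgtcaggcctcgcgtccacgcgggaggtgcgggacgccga

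The antioxidant response element core was found in 1 of the 7 windows, that of the second *Txnrd1* start, beginning at position -92 from the start, and in 12.4% of all 32851 windows of this length in the same table. A GC box was found in 4 of the 7 windows, against 35.7% of all windows. The *Txn1* window held 4 of them, the *Txn2* window 2, the *Txnrd2* window 1 and the second *Txnrd1* window 1 (not in capitals above), and the *Txnrd3* window held none of either motif. The *Txn1* and *Txnrd2* windows had a GC content of 67.3% and 67%, and that of *Txn2* 58.7%.

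Each array carried Cy3-labelled RNA of 1 mouse and a Cy5-labelled reference RNA, of which the labels describe 1 kind for all 48 arrays, and the values below are log2 ratios of mouse over reference after loess normalisation. The share of probes well above background in Cy3 was 55.1% to 66% per liver array and 66.8% to 73.7% per colon array. All 6 member probes were well above background in both channels on all 48 arrays and none was saturated. The organs matched their labels in 3 lists. In the liver, 8 of 8 measured hepatocyte markers were called higher. In the colon, 6 of 6 goblet cell markers and 7 of 7 smooth muscle markers were called higher. Other lists were less clear. Of 7 absorptive colonocyte markers, 5 were called lower in the liver and 1 higher. All 5 cholangiocyte markers were called lower in the liver. Of 4 stellate markers 2 were called higher and 2 lower, and of 4 liver endothelial markers 2 higher and 1 lower. In 3 samples a marker list of another tissue or of immune cells lay over 2 log2 units above the median of its organ: exocrine pancreas in 1 HL liver, adipocyte in 1 LH liver, and macrophage and lymphocyte in 1 LL colon. *Xist*, which is transcribed in females, lay over 2 log2 units above the organ's median in 2 liver and 6 colon samples. In 4 of these 8 samples the Y-linked *Eif2s3y* and *Ddx3y* both lay over 2 log2 units below the organ's median. The male sex given in the study's methods thus did not hold for these 4. In the other 4 neither gene lay that low. The first 4 were HL mouse 2 in the liver and LL mice 1 and 3 and HL mouse 5 in the colon. All of them ate diet L after weaning, and no LH sample was among the 8, so apparent sex was not balanced over the diets. No member was called or lost its call when the 8 samples with high *Xist* were left out.

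The mitochondrial pair was higher in the liver than in the colon and *Txn1* was lower, whereas *Txnrd1* did not differ detectably and *Txnrd3* was modestly lower in the liver. *Txnrd2* was 2.58-fold higher in the liver, *Txn2* 1.66-fold higher and *Txn1* 1.61-fold lower, each past the 1.5-fold change and adjusted p of 0.05 that served as the call in this design. Organs differed widely in general: 30.3% of the 41171 probes tested were called, 14.6% as higher in the liver and 15.7% as lower. The call of 4 of 6 member probes is to be read against that share. It also counts probes that were not well above background, unlike the 6 member probes. Differences are given as liver minus colon with limma's adjusted p over all probes. The arrays of the 2 organs lay on separate slides, so organ and slide cannot be told apart. The fit also treated mice that shared a slide as independent. Where much of the spread lay between slides, as described below, the standard errors, intervals and p of the organ differences are thus likely too small. In whole tissue, fewer cells of a type and less RNA per cell cannot be told apart either.

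*Txnrd2*, the mitochondrial reductase, gave the clearest separation. Its log2 ratio ranged from 0.51 to 1.51 with a median of 1.24 over 23 livers, and from -0.59 to 0.11 with a median of -0.12 over 24 colons. The lowest liver thus lay above the highest colon. The means were 1.18 ± 0.28 (SD, n = 23) and -0.19 ± 0.18 (SD, n = 24), a difference of 1.37 with a standard error of 0.07 (95% interval 1.23 to 1.51, adjusted p = 2.41e-22, limma). The second *Txnrd2* probe differed by 1.2 (adjusted p = 2.68e-20, limma). Across the livers both probes moved together (r = 0.91, n = 23), whereas across the colons, where their values spanned a narrower range, r was 0.29 (n = 24).

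*Txn2*, the mitochondrial thioredoxin, ranged from 0.41 to 1.17 with a median of 0.69 in the liver and from -0.32 to 0.67 with a median of -0.16 in the colon. All but 1 of the colons lay below every liver. The means were 0.7 ± 0.21 (SD, n = 23) and -0.03 ± 0.26 (SD, n = 24), and the difference was 0.73 with a standard error of 0.07 (95% interval 0.59 to 0.87, adjusted p = 7.1e-13, limma). It fell under 1.5-fold with centring of each array on its median in place of loess (0.24, adjusted p = 0.00274) and with the mouse channel alone (0.56, adjusted p = 3.52e-18).

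*Txn1*, the cytosolic thioredoxin, was below the reference in every sample. It ranged from -2.12 to -1.07 with a median of -1.31 in the liver and from -1.13 to -0.3 with a median of -0.77 in the colon. Of the 23 livers, 21 lay below every colon. The means were -1.42 ± 0.26 (SD, n = 23) and -0.72 ± 0.24 (SD, n = 24), and the difference was -0.69 with a standard error of 0.07 (95% interval -0.83 to -0.55, adjusted p = 2.83e-12, limma). Without the colon slides 11 and 12, described below, it was -0.57 (adjusted p = 5.16e-09), under 1.5-fold, and with the mouse channel alone it was -0.98.

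*Txnrd1*, the cytosolic reductase, overlapped widely between the organs. It ranged from -0.04 to 0.85 with a median of 0.18 in the liver and from -0.28 to 0.66 with a median of 0.09 in the colon. The difference was 0.14 with a standard error of 0.08 (95% interval -0.02 to 0.31, adjusted p = 0.108, limma), and its sign turned with the mouse channel alone (-0.15, adjusted p = 0.0324) and with median centring (-0.29, adjusted p = 0.00205), and without colon slides 11 and 12 it was 0.3 (adjusted p = 0.000807), so its direction was not settled. *Txnrd3* ranged from -0.65 to 0.25 with a median of -0.31 in the liver and from -0.28 to 0.53 with a median of 0.2 in the colon. Its difference of -0.48 with a standard error of 0.06 (95% interval -0.6 to -0.35, adjusted p = 2.84e-09, limma) was 1.39-fold and so was not called, except with median centring (-1.1).

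**Figure D1:**
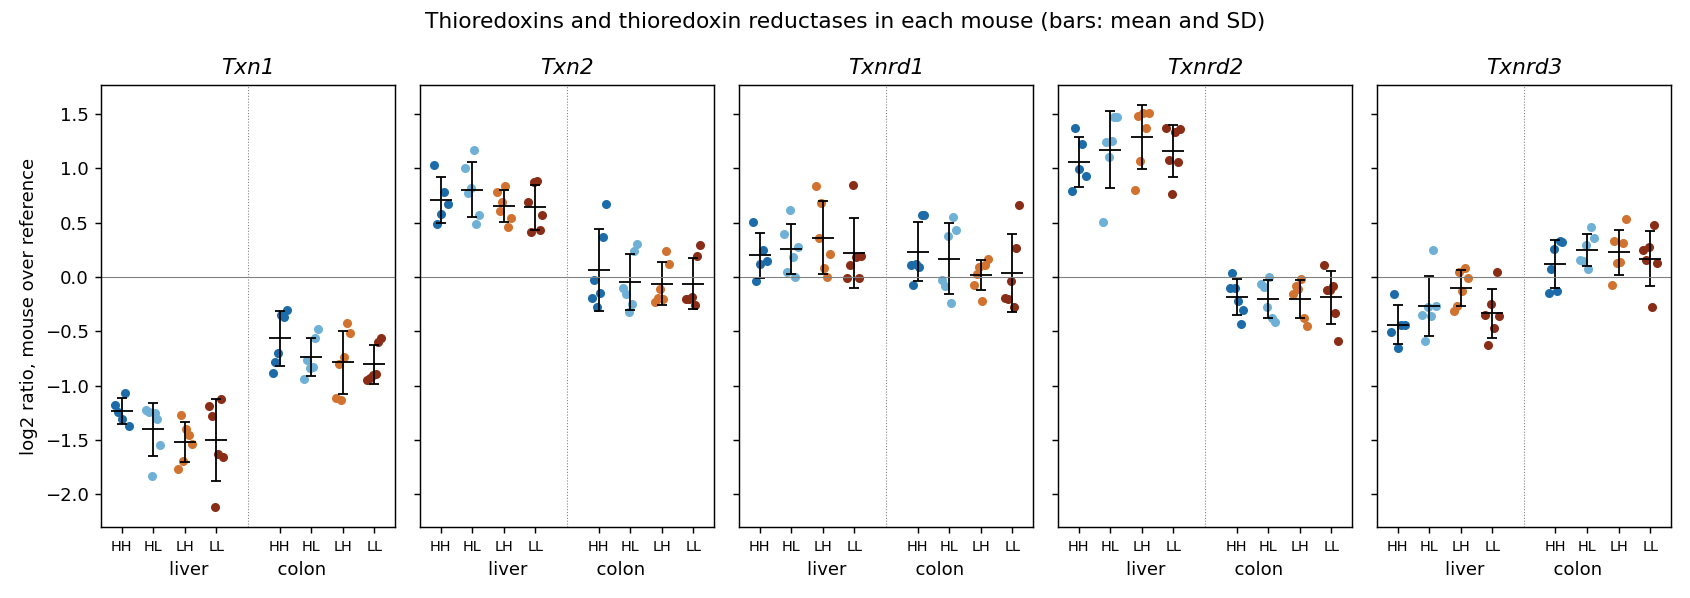
Log2 ratio of mouse over reference (y axis) for each of the 5 genes in every mouse, grouped by organ and diet (x axis). Points are mice and bars are the mean and SD of a group. *Txnrd2* lies between 0.51 and 1.51 in the livers and between -0.59 and 0.11 in the colons, and within an organ the diet groups overlap for every gene.

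Within the colon, most of the spread of these genes lay between slides and not between mice of a slide. Every slide held 1 mouse of each diet group. The share of the spread that lay between slides was 84.4% for *Txn2*, 79% for *Txnrd2*, 70.9% for *Txnrd1*, 68.9% for *Txn1* and 60.8% for *Txnrd3*, against a median of 40.4% over all probes in the colon, 28.1% of which exceeded 60%. In the liver the same shares were 66.7% for *Txn2*, 54.2% for *Txnrd1*, 47.3% for *Txnrd2*, 45.6% for *Txn1* and 29.6% for *Txnrd3*, against a median of 27.9%, with 4.17% of probes over 60%.

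Slides 11 and 12 (8 mice) stood apart from slides 7 to 10 (16 mice), a split seen only after the values had been examined and so given without a test. The log2 ratio on slides 11 and 12 was higher by 0.49 for *Txn2*, 0.46 for *Txnrd1*, 0.37 for *Txn1* and 0.26 for *Txnrd3*, and lower for *Txnrd2* (a difference of -0.32). The mouse channel hardly moved. On the log2 Cy3 scale the same differences were 0.02 for *Txn2*, -0.03 for *Txnrd1*, 0.01 for *Txn1*, -0.05 for *Txnrd3* and 0.08 for *Txnrd2*.

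The reference channel carried the difference, with the sign turned. On the log2 Cy5 scale it was -0.48 for *Txn2*, -0.46 for *Txnrd1*, -0.35 for *Txn1*, -0.31 for *Txnrd3* and 0.4 for *Txnrd2*. The *Txn2* reference signal ranged from 12.52 to 12.79 on slides 11 and 12 and from 13 to 13.27 on slides 7 to 10, and that of *Txnrd2* from 10.11 to 10.32 and from 9.79 to 9.94, so neither pair of ranges overlapped. Over all probes the ratio moved by a median of 0.11 between these slides, and 18.3% of probes moved by over 0.3. The reference signal of *Txn2* also differed among the liver slides, again seen only after the values had been examined. On slides 1, 3 and 4 its slide means were 12.77 to 12.8, at mean ratios of 0.76 to 0.92. On slides 2, 5 and 6 they were 12.97 to 13.07, at mean ratios of 0.51 to 0.57. *Txn1*, *Txnrd1* and *Txnrd3* likewise had a lower reference signal on slides 1, 3 and 4, whereas the slide means of *Txnrd2* overlapped. Whether more than 1 preparation of the reference was used is not given in the sources used here and was not tested. The level of a marker list was taken as the mean log2 Cy3 of its genes in a mouse. Between colon slides 11 and 12 and slides 7 to 10, the mean levels of the 14 lists differed by at most 0.29. The adipocyte list differed most (10.57 against 10.86, with ranges of 7.69 to 12.13 and 7.69 to 12.55).

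**Figure D2:**
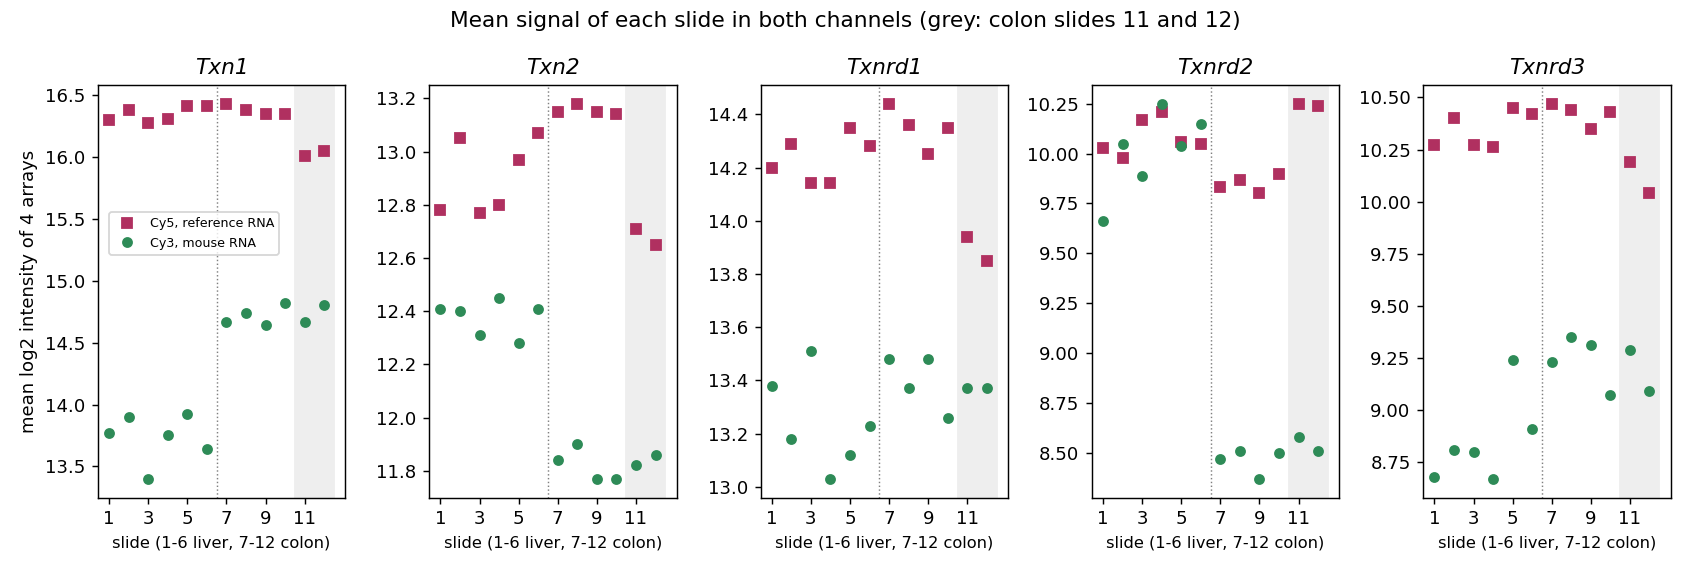
Mean log2 intensity (y axis, a separate scale for each gene) of the 4 arrays of each slide (x axis, slides 1 to 6 liver and 7 to 12 colon) in the reference channel (squares) and the mouse channel (circles). On slides 11 and 12, shaded, the squares step down for *Txn1*, *Txn2*, *Txnrd1* and *Txnrd3* and up for *Txnrd2*, while the circles stay within the range of the other colon slides for *Txn1*, *Txn2*, *Txnrd1* and *Txnrd3*.

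The crossed design asked whether the diet of the dam or that of the offspring changed gene expression. None of the 6 member probes was called in any of the 20 diet comparisons, which were the 6 pairs of groups, both main effects and their interaction in each organ, and the difference of each main effect between organs. The share of all probes called was likewise 0% in each of them. The study itself reports differentially expressed liver probes at the same threshold, the most for HH *vs.* LH, and none in the colon. The liver counts here thus depart from the published ones, and the reason was not tested. Of the 120 tests of member probes, 4 had an unadjusted p under 0.05, and the lowest adjusted p was 0.295 (limma). A comparison written as HH *vs.* LH is given as LH minus HH, so a positive value is higher in the second group named. The study gives HH *vs.* HL the other way round.

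*Txnrd3* in the liver showed the lowest p of the members. Its log2 ratios in the 5 HH livers were -0.65, -0.51, -0.44, -0.44 and -0.16. In the 6 livers of each other group the lowest, median and highest values were -0.31, -0.07 and 0.08 in LH, -0.59, -0.32 and 0.25 in HL, and -0.63, -0.36 and 0.05 in LL. LH was thus the highest group and HH the lowest, and HH and LH overlapped. HH *vs.* LH gave a difference of 0.34 with a standard error of 0.13, or 1.27-fold (95% interval 0.08 to 0.61, unadjusted p = 0.0132, adjusted p = 0.295, limma), and 12% of all probes had an unadjusted p under 0.05 in this comparison. Within slides, LH lay above HH on 5 of 6 slides, of which slides 3 and 6 held the same HH mouse, so 5 HH mice stand behind the 6 slides. With the slide as a block the p was 0.00619 (adjusted p = 0.171, limma), in a fit where 14.8% of all probes had a p under 0.05. The interaction of both diets was -0.41 (unadjusted p = 0.0288, adjusted p = 0.385, limma), against 11.4% of all probes under 0.05. The dam diet effect was 0.14 (95% interval -0.05 to 0.32).

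Several lists of cell type markers lay apart in the same comparison, with no marker called. From HH to LH the 8 measured hepatocyte markers all lay higher (median 0.28), with mean levels on the log2 Cy3 scale of 15.59 to 16.31 in HH and 16.15 to 16.42 in LH. The 6 Kupffer cell and macrophage markers all lay lower (median -0.31, mean levels of 10.69 to 12.35 and 10.61 to 11.74). So did the 4 measured erythroid markers (median -0.34, mean levels of 12.02 to 12.36 and 11.73 to 12.15). The 5 adipocyte markers lay higher (median 0.41), with mean levels of 7.04 to 8.11 in HH and 6.98 to 10.3 in LH. The group medians of these adipocyte levels were 7.4 and 7.39, and the highest value was the LH liver flagged above. The medians of the remaining cell type lists ran from -0.31 (exocrine pancreas, 6 of 7 markers lower) to 0.13 (liver endothelial cell, 3 of 4 higher). Among them, all 4 stellate markers (median -0.11) and all 5 enteroendocrine markers (median -0.13) lay lower. The part of the cell type markers in the member differences between HH and LH livers was not tested.

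*Txnrd2* lay in the same direction in the liver. For the brighter probe LH was above HH on 6 of 6 slides, by 0.01 to 0.45, again with 5 HH mice behind the 6 slides. For the second probe LH lay below HH on slide 1 (0.62 against 0.66). The means of the brighter probe were 1.06 ± 0.23 (SD, n = 5) in HH, 1.17 ± 0.36 (SD, n = 6) in HL, 1.29 ± 0.29 (SD, n = 6) in LH and 1.16 ± 0.24 (SD, n = 6) in LL, so the groups differed by less than the spread between mice. HH *vs.* LH was 0.23 (95% interval -0.11 to 0.57, adjusted p = 0.605, limma) for the brighter probe and 0.41 (95% interval 0.02 to 0.8, unadjusted p = 0.0385, adjusted p = 0.389, limma) for the second probe. In the colon the dam diet effect was 0 for the brighter probe (95% interval -0.16 to 0.16) and -0.07 for the second (95% interval -0.16 to 0.02). The dam diet effect of the second probe differed between the organs by -0.28, colon minus liver (unadjusted p = 0.0489, adjusted p = 1, limma), in a comparison where 3.52% of all probes had a p under 0.05.

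The *Txn1* mean was lower in HL, LH and LL than in HH in both organs, by amounts that did not pass the test. In the 5 HH livers its log2 ratios were -1.37, -1.31, -1.24, -1.18 and -1.07. The lowest, median and highest values of the other livers were -1.83, -1.28 and -1.22 in HL, -1.77, -1.5 and -1.27 in LH, and -2.12, -1.45 and -1.12 in LL, so all groups overlapped HH. The liver HH *vs.* LH difference was -0.29 (95% interval -0.59 to 0.02, adjusted p = 0.445, limma), with LH below HH on 5 of the 5 slides where both were measured. The spot of *Txn1* was flagged and left out on 1 of the arrays of the HH mouse hybridised on 2, so that mouse's value came from its other array.

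In the colon the *Txn1* means were -0.56 ± 0.25 (SD, n = 6) in HH, -0.73 ± 0.18 (SD, n = 6) in HL, -0.79 ± 0.29 (SD, n = 6) in LH and -0.81 ± 0.18 (SD, n = 6) in LL. LH and LL each lay below HH on 6 of 6 slides. HH *vs.* LH was -0.22 (95% interval -0.48 to 0.04, unadjusted p = 0.0886, adjusted p = 1, limma) and HH *vs.* LL -0.24 (95% interval -0.5 to 0.02, unadjusted p = 0.0666, adjusted p = 1, limma). With the slide as a block the unadjusted p was 0.00253 and 0.0013, at adjusted p of 0.412 and 1, while 8.08% and 3.43% of all probes had a p under 0.05 in those fits. The dam diet effect was -0.15 (95% interval -0.33 to 0.04), with an unadjusted p of 0.11 and of 0.00421 with the slide as a block (adjusted p = 0.906), where 5.42% of all probes were under 0.05. The same differences in the mouse channel alone were -0.21 for HH *vs.* LH and -0.17 for HH *vs.* LL.

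The remaining members passed no test either. *Txnrd1* in the liver averaged 0.2 ± 0.2 (SD, n = 5) in HH, 0.26 ± 0.23 (SD, n = 6) in HL, 0.36 ± 0.33 (SD, n = 6) in LH and 0.22 ± 0.32 (SD, n = 6) in LL, and its dam diet effect was 0.06 (95% interval -0.17 to 0.29). In the colon it averaged 0.23 ± 0.27, 0.17 ± 0.33, 0.02 ± 0.14 and 0.04 ± 0.36 in the same order (SD, n = 6 each), and its dam diet effect was -0.17 (95% interval -0.4 to 0.06), at an unadjusted p of 0.134 and of 0.00902 with the slide as a block (adjusted p = 0.906). *Txn2* means ranged from 0.64 in LL to 0.8 in HL in the liver and from -0.06 in LH and LL to 0.07 in HH in the colon, with dam diet effects of -0.11 (95% interval -0.28 to 0.07) and -0.07 (95% interval -0.29 to 0.15). *Txnrd3* in the colon averaged 0.12 in HH, 0.25 in HL, 0.23 in LH and 0.17 in LL, with a dam diet effect of 0.02 (95% interval -0.15 to 0.19). HL lay above HH on 6 of 6 colon slides for *Txnrd3*, by 0.03 to 0.31, and HH *vs.* HL was 0.13 with a standard error of 0.12 (unadjusted p = 0.263, and 0.109 with the slide as a block, adjusted p = 1, limma). The diet of the offspring gave effects between -0.07 and 0.04 for the brighter probes in the liver and between -0.09 and 0.04 in the colon.

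**Figure D3:**
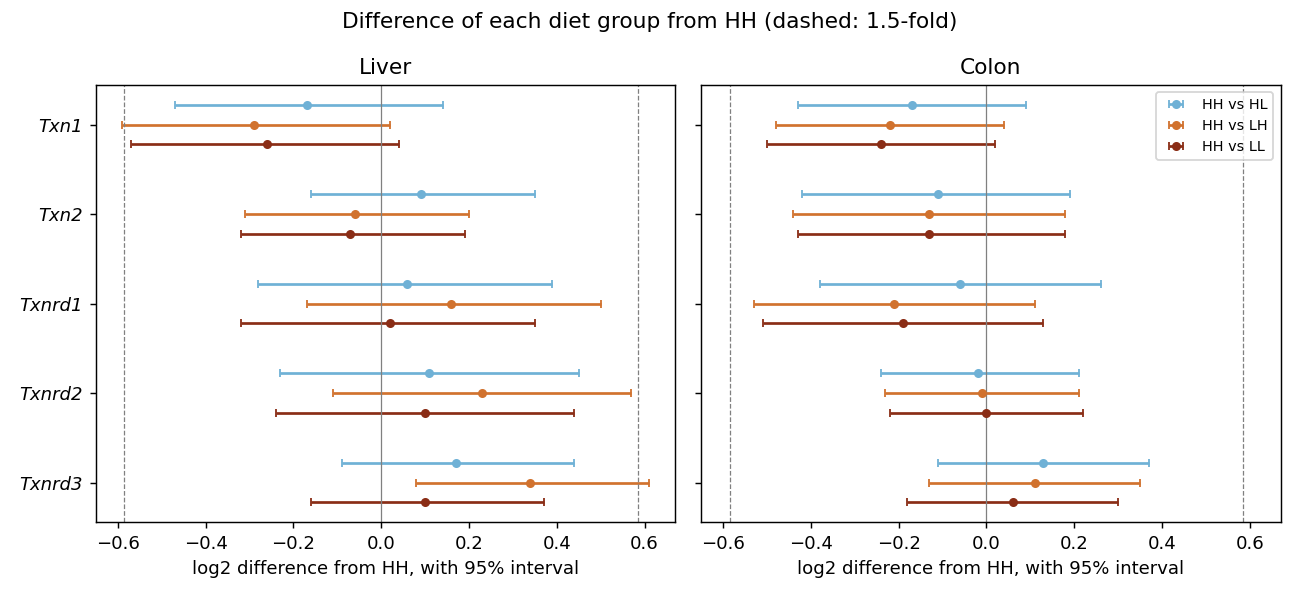
Log2 difference of HL, LH and LL from HH (x axis) for each gene (y axis) in the liver (left) and the colon (right), with 95% intervals from limma, and dashed lines at a 1.5-fold change. All intervals include 0 except that of *Txnrd3* for HH *vs.* LH in the liver, 0.08 to 0.61.

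Genes that work with thioredoxin were examined in 5 lists, and are given as liver minus colon, beside a median of 0.01 over all probes, 14.6% of which were called higher and 15.7% lower (30.3% in all). Of 24 measured clients and regulators, 12 were called higher in the liver and 5 lower, with a median difference of 0.63. The peroxiredoxins, most of which reduce peroxides at the expense of thioredoxin, were called higher in the liver for 4 of 6 members: *Prdx4* by 1.99, *Prdx6* by 1.37, *Prdx1* by 1.33 and *Prdx5* by 1.03, while the mitochondrial *Prdx3* differed by 0.39 and was not called. The methionine sulphoxide reductases *Msra* (2.01), *Msrb1* (1.92) and *Msrb2* (1.4) were also called higher, as were *Gclc* (1.9) and *Gclm* (1.61), the subunits of the enzyme that limits glutathione synthesis. *Txnip*, the thioredoxin inhibitor, was lower in the liver, with a difference of -2.71, as were the ribonucleotide reductase subunit *Rrm1* (-1.7), nucleoredoxin *Nxn* (-1.9) and glutaredoxin *Glrx* (-0.73). *Gsr*, the glutathione reductase, differed by 0.57 and was not called.

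Of 8 measured sources of NADPH, the electron donor of the reductases, 3 were called higher and 3 lower, with a median of 0.01. Malic enzyme *Me1* (1.89), *Mthfd1* of folate metabolism (1.57) and *Idh1* (1.38) were higher in the liver, and *G6pdx* (-2.3) and *Pgd* (-0.88) of the pentose phosphate pathway and the mitochondrial *Mthfd2* (-1.09) were lower. Of 15 genes of the Nrf2 pathway, 7 were called higher and 5 lower, with a median of -0.08. *Nfe2l2* itself (-1.45) and *Nqo1* (-1.09) were lower in the liver, the haem oxygenase *Hmox1* (1.63) and the glutathione transferases *Gsta1* (2.12) and *Gstm1* (2.26) were higher, and *Keap1*, the repressor of Nrf2, differed by -0.08. Several genes, such as *Gclc*, *Prdx1* and *G6pdx*, stand in more than 1 list.

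Of 20 other genes of selenoproteins, among them the selenophosphate synthetase *Sephs2*, 8 were called higher in the liver and 3 lower, with a median of 0.26. *Sephs2* (2.9), the selenium transport protein *Selenop* (2.49) and the glutathione peroxidases *Gpx1* (2.44) and *Gpx4* (1.09) were higher in the liver. *Gpx2*, the intestinal glutathione peroxidase (-4.27), and *Selenom* (-4.3) were lower. Of 19 measured proteins with a thioredoxin-like domain, 4 were called higher and 2 lower, with a median of 0.18. This share of 31.6% was close to the 30.3% of all probes. The latter share also counts dim probes, whereas every list takes the brightest probe of a gene. The protein disulphide isomerases *Pdia4* (1.51) and *P4hb* (1.03) were higher in the liver, and *Dnajc10* (-1.3) and *Txndc16* (-1.35) were lower. None of the called genes of the lists changed direction under 5 other settings of background and scaling. With median centring 7 of them fell under 1.5-fold, among them *Prdx5* (0.58), and the list medians moved to 0.08 for clients and regulators, -0.57 for NADPH sources, 0.41 for the Nrf2 pathway, -0.17 for selenoproteins and -0.15 for relatives, so the signs of the medians were not settled.

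**Figure D4:**
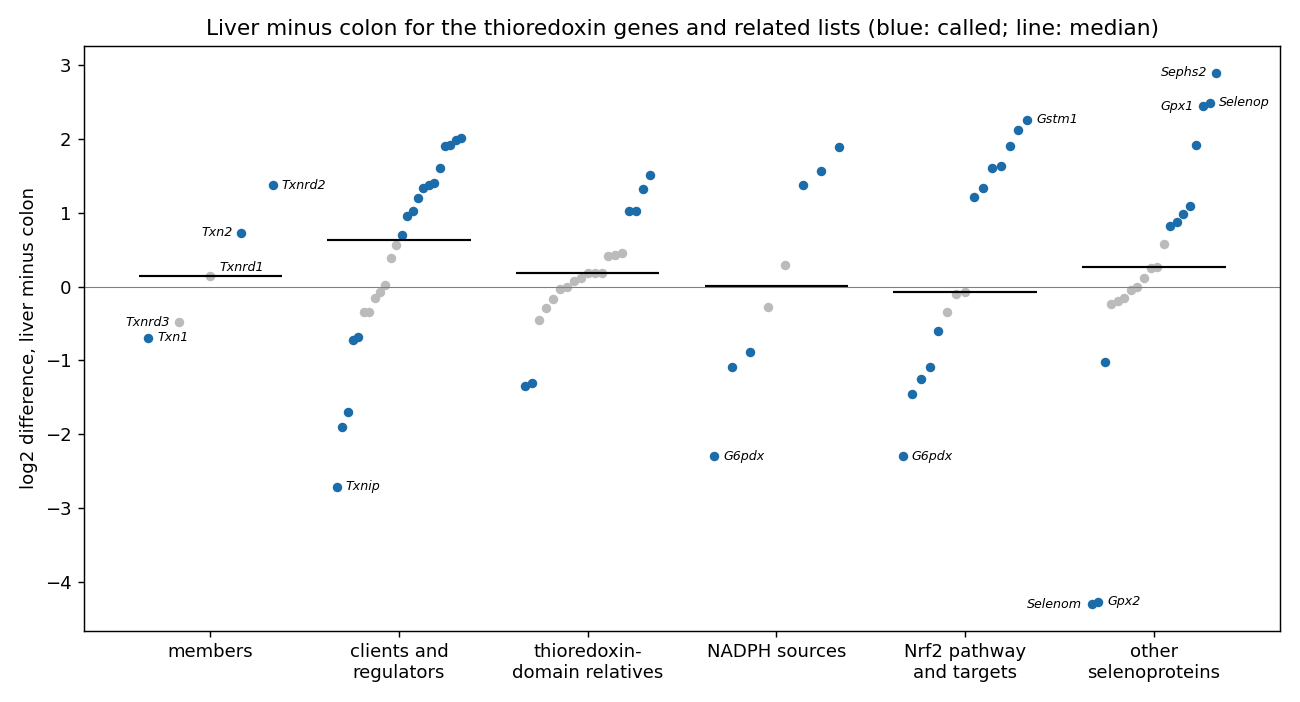
Log2 difference of liver minus colon (y axis) for each measured gene of the members and of the 5 lists (x axis), blue where the gene was called and grey where it was not, with a line at the median of each list. *Txnip* lies at -2.71 and *Gpx2* and *Selenom* lie near -4.3, while *Sephs2* lies at 2.9.

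In the diet comparisons no gene of these lists was called either. For the diet of the dam in the liver, where 4.14% of all probes had an unadjusted p under 0.05, this held for 1 of 24 clients and regulators, 4 of 19 relatives, none of 8 NADPH sources, 2 of 15 Nrf2 genes and 2 of 20 other selenoproteins. *Gpx4*, which reduces lipid peroxides, gave -0.32 (unadjusted p = 0.00148) and *Selenow*, whose product is a small selenoprotein abundant in muscle, -0.27 (unadjusted p = 0.0121). *Pdia6* gave 0.38 (unadjusted p = 0.00531), *Tmx3* -0.21 (unadjusted p = 0.0078), *Nqo1* -0.35 (unadjusted p = 0.0153), *Ugdh* -0.26 (unadjusted p = 0.0207) and *Prdx2* -0.13 (unadjusted p = 0.0301), all at an adjusted p of 0.999 (limma). *Gpx1* gave -0.14, *Selenop* -0.16, *Selenoh* -0.13 and *Txnip* 0. In the colon, where 2.11% of all probes had an unadjusted p under 0.05 for the diet of the dam, 1 gene of the lists did, *Rrm2b* (0.12, unadjusted p = 0.0243, adjusted p = 1, limma).

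The genes were also compared with one another across mice, 10 pairs in each organ. In the liver *Txn1* and *Txnrd1* ran in opposite directions (r = -0.68, rho = -0.49, permutation p = 0.00063 and 0.0171, adjusted over 20 pairs 0.00183 and 0.0342, n = 23). Without the 2 mice farthest from the median of *Txn1* r was -0.48, within slides -0.65 (permutation p = 0.0314, adjusted 0.259), and in the mouse channel alone -0.67 (permutation p = 0.00059, adjusted 0.0118). It was the one pair of the 20 past an adjusted p of 0.05 in the mouse channel alone. *Txnrd1* and *Txnrd2* also ran in opposite directions in the liver (r = -0.57, rho = -0.42, permutation p = 0.00472 and 0.0472, adjusted 0.0118 and 0.0709, n = 23), with -0.41 without the 2 farthest mice and -0.4 within slides.

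In the colon 9 of the 10 pairs passed an adjusted p of 0.05, and the values within slides did not bear this out for most of them. *Txn2* and *Txnrd2* gave r = -0.72 over 24 mice (rho = -0.62, permutation p = 6e-05 and 0.00153, adjusted 3e-04 and 0.0074), but 0.35 over the 16 mice of slides 7 to 10, 0.34 over the 8 mice of slides 11 and 12, and 0.35 after centring within each slide. Without the 2 farthest mice r was -0.77. *Txn1* and *Txn2* went from 0.75 over all mice to 0.33 within slides, *Txn2* and *Txnrd1* from 0.77 to 0.33, *Txn1* and *Txnrd2* from -0.67 to -0.1, and *Txnrd2* and *Txnrd3* from -0.45 to 0.42. *Txnrd1* and *Txnrd2* kept their sign, at -0.84 over all mice, -0.68 over slides 7 to 10, -0.29 over slides 11 and 12 and -0.47 within slides. After centring within slides no pair of the 20 passed an adjusted p of 0.05.

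**Figure D5:**
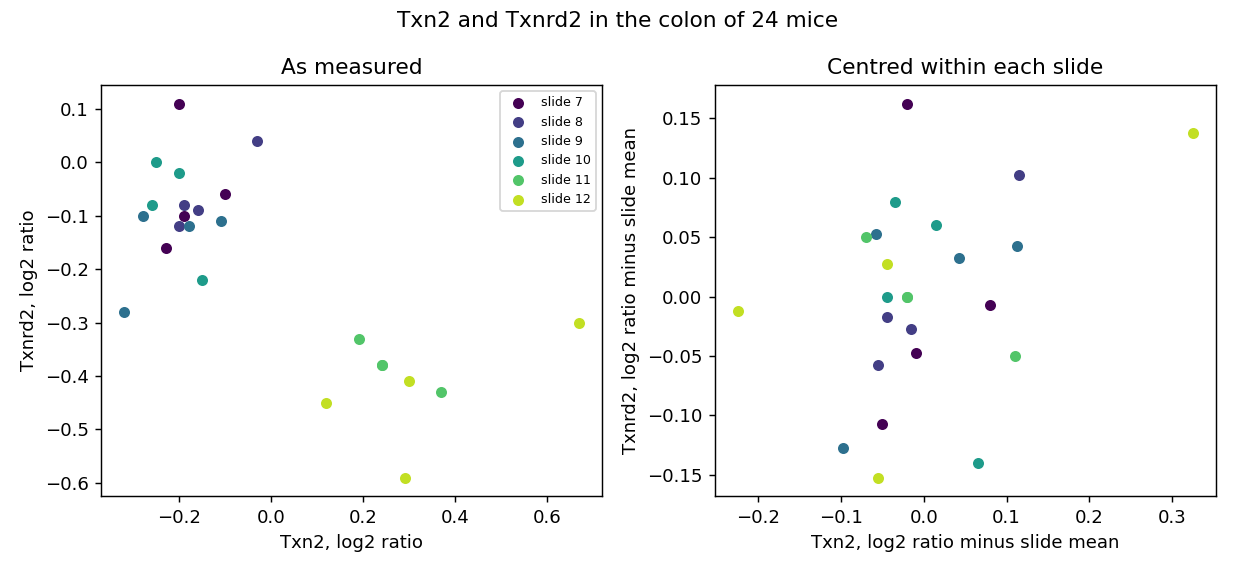
*Txn2* (x axis) against *Txnrd2* (y axis) in the colon of 24 mice, as log2 ratios (left) and after subtracting the mean of each slide (right), coloured by slide. The 8 mice of slides 11 and 12 lie apart at the lower right of the left panel, where r is -0.72, and no such split is left in the right panel, where r is 0.35.

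The genes whose log2 ratios followed each member most closely were named among genes well above background on all arrays of an organ, as a description over mice that share slides and reference. In the liver (12361 genes, 23 mice) these were *Pogz* (r = 0.92) for *Txnrd1*, *Gps2* (0.91) and *Cog8* (0.89) for *Txnrd2*, *Ipmk* (0.91) and *Casp9* (0.86) for *Txnrd3*, *Mrpl1* (0.88) and *Mtpn* (0.86) for *Txn1*, and *Iftap* and *Pigz* (both 0.86) for *Txn2*. In the colon (14364 genes, 24 mice) they were *Atp5d* and *Dpm2* (both 0.94) for *Txn2*, *Tmbim4* and *Fnta* (both 0.94) for *Txnrd2*, *Rpn1* and *Dnajb11* (both 0.9) for *Txnrd1*, *Smim24* and *Mep1a* (both 0.89) for *Txnrd3*, and *Tma7* and *Plpp1* (both 0.86) for *Txn1*. No gene was named for more than 1 member or in both organs.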

How the data were processed

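The 48 deposited scanner files (Agilent 2-colour mouse arrays with 45018 spots) hold a spot's Cy3 and Cy5 intensity, which the authors extracted with Agilent's software. The deposited table of log2 ratios, which per the study's methods was normalised by global loess with limma in R 3.0.2, runs as reference over mouse, was turned, and served as an alternative. Its columns had a correlation of at least 0.9998 with a loess of the raw medians, with medians near 0. Per the labels the mouse RNA carried Cy3 and the reference Cy5 on every array, with no dye swap, so a dye effect of a probe stays in every ratio. The labels describe the reference as whole pregnant mice with foetuses and the methods as pooled RNA of all mice.

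Here, background was corrected by normexp with an offset of 50 (a local background brighter than its spot was replaced by the array's median), followed by loess within arrays. Control spots had weight 0, outlier spots were left out and spots of a probe were averaged. Genes were named through RefSeq (GRCm38.p6), 27050 of 41174 probes, and the brightest probe stood for a gene. limma 3.58.1 (R 4.3.3) fitted the 4 groups of an organ, or all 8 groups for organ differences, with Benjamini-Hochberg adjustment over all probes with values in at least 2 mice per group. A probe was called at over 1.5-fold and an adjusted p under 0.05. Correlations used 100000 permutations. The scripts were tested on simulated data. The number of arrays limits the precision. Nothing in the labels says which liver and colon came from 1 mouse, so the organs were treated as separate mice. All mice of a group may share litters, which the labels do not give. The members, the gene lists and the rule for naming genes (the called genes of each list, the 3 with the lowest p for the diet of the dam, the 2 most correlated per member, and *Gpx1*, *Gpx4*, *Selenow*, *Selenoh*, *Selenop* and *Txnip* always) were chosen with earlier results of these data known. One gene that this rule names is not reported here.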

Additional observations from a re-analysis of the deposited data

Results flagged for a closer look

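Of 48 sets of values (6 probes in 8 groups), 2 held a value that stood apart by Dixon's criterion, which flags about 1 group in 20 by chance. *Txnrd1* in the liver of LL mouse 3 was 0.85, against 0.19 in the next highest of the 6 LL livers. The same mouse had the lowest *Txn1* of all livers, -2.12. The second *Txnrd2* probe in the colon of HL mouse 6 was -0.15, against -0.01 in the next lowest of the 6 HL colons, in a group whose values spanned only -0.15 to 0.03.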

How the results depend on the processing

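The number of member probes called was within 1.5 times of that reported under every setting run and with any 1 mouse left out, for the organ comparison and all 20 diet comparisons (0 calls in the diet comparisons in every case, 4 in the organ comparison with any mouse left out). Of the single values under other settings, 519 kept their direction and side of the threshold, 6 reversed, 3 fell under the threshold and 1 passed it. With a mouse left out 838 kept both and 5 reversed. The organ difference of *Txnrd1* turned to -0.29 with median centring and -0.15 with the Cy3 channel alone, and was 0.18 (adjusted p = 0.0285, limma) with array weights. The colon dam diet effect of *Txnrd3* (0.02) turned to -0.03 with median centring, -0.03 with the Cy3 channel alone and -0.05 without the mice with *Xist*, and ranged from -0.01 to 0.06 with a mouse left out. The liver HH *vs.* LH difference of *Txn2* (-0.06) turned to 0.07 with median centring and ranged from -0.11 to 0.02 with a mouse left out. Of the 20 pairs, 11 passed an adjusted p of 0.05 as reported, 1 in the Cy3 channel alone and 0 after centring within slides. The colon pair *Txn2* and *Txnrd2* turned to 0.35 in both of these, and *Txnrd2* and *Txnrd3* to 0.1 in the Cy3 channel and 0.42 within slides. The cause was not tested. Median centring moved the median organ difference of all probes from 0.01 to 0.215, and the number of probes called between organs ranged from 9299 to 24221 over all settings, against 12491 as reported. In the liver HH *vs.* LH comparison, 106 probes were called with all 8 groups in 1 fit, 18 with the 2 groups alone, 6 with the 2 HH arrays counted as 2 mice and 2 with array weights, none of them a member. Leaving out the mice with markers of another tissue and leaving out colon slides 11 and 12 were added after the values had been seen. No paired analysis was possible because the labels number no mice across groups. The slide, which held 1 mouse of each group, was used as a block in its place and changed no call of a member.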
